A study of Homo sapiens with 18 samples.

Results

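LNCaP cells that carried an shRNA against FOXA1 together with an shRNA against HIF1A (shFOXA1+shHIF1A) were compared directly with LNCaP cells that carried the FOXA1 shRNA and received the compound KC7F2 (shFOXA1+KC7F2). The comparison used the 6 of 18 RNA sequencing libraries whose labels name these treatments, 3 in each group. It covered the 12900 of 26443 genes that reached at least 1 RPKM (reads per 1000 bases of gene per 1000000 reads) in at least 3 of the 18 libraries. LNCaP is an established human prostate cancer line that is sensitive to androgen. The labels give lentiviral infection for 5 days in every group, and 100 µM CoCl2, a chemical stand-in for hypoxia, for the last 24 h, so both groups shared the FOXA1 hairpin and the CoCl2. KC7F2 was given at 40 µM for 24 h before harvest, while the HIF1A hairpin was present for the 5 days of infection, so the length of HIF1A inhibition differs between the groups along with the agent. A group with shFOXA1 alone served to place each of them, and shHIF1A alone was set against the control shRNA vector pGIPZ with KC7F2 (pGIPZ+KC7F2) for the same comparison with FOXA1 intact, each in 3 libraries. The labels call all cultures wild type, and they do not state the vehicle of KC7F2 or whether cells that received 1 hairpin also received a second vector. They number 3 libraries in each group without stating separate cultures, so a p-value here reflects only how these samples scatter.

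HIF1A is the oxygen-regulated subunit of hypoxia-inducible factor 1. Its protein is hydroxylated and degraded when oxygen is present, and CoCl2 blocks that degradation. With its partner ARNT it binds short DNA cores and turns on genes of glucose uptake, glycolysis and blood vessel growth. An shRNA removes the HIF1A mRNA, whereas KC7F2 is described as an inhibitor of HIF1A protein synthesis, so mRNA levels alone do not report its effect on the target. FOXA1 is a pioneer factor that opens chromatin for hormone-driven transcription in luminal prostate cells.

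The 6 libraries held 3.26 to 9.20 (in units of 1000000 reads), as recovered from the spacing of the lowest values, and shFOXA1+shHIF1A replicate 1 was the shallowest of the whole series. Differences are log2 fold changes of shFOXA1+shHIF1A over shFOXA1+KC7F2 on log2(RPKM + 0.5), given with their standard error, and a gene is called at an adjusted p below 0.05 (limma over all 12900 genes, Benjamini-Hochberg). Of the genes tested, 3020 were higher in shFOXA1+shHIF1A (23.4%) and 1700 were lower (13.2%). These shares are the background for the list counts of this comparison below. At least 2-fold changes were fewer, with 611 genes higher (4.74%) and 390 lower (3.02%). The median of all genes was 0.09, and the balance of directions moved with the scaling. Median-ratio scaling shifted the median by -0.11 and called 2334 genes higher and 2296 lower. Quantile normalisation called 2523 higher and 2319 lower, and a fit with length and GC trends taken out of each library called 2591 higher and 2489 lower. Without shFOXA1+shHIF1A replicate 1, 2479 genes were higher and 1569 lower. The plot of fold change against level shows the calls over the range of expression.

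**Figure D1:**
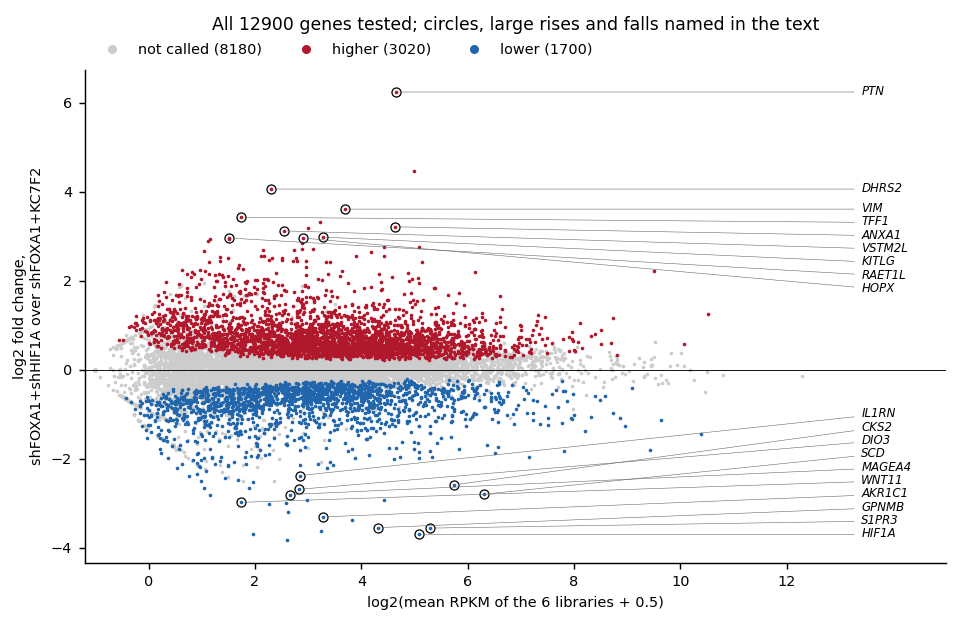
Each point is 1 of 12900 genes, with log2(mean RPKM of the 6 libraries + 0.5) on the x axis and the log2 fold change of shFOXA1+shHIF1A over shFOXA1+KC7F2 on the y axis. Red marks the 3020 genes higher and blue the 1700 lower at an adjusted p below 0.05, and circles mark large rises, such as PTN, and large falls, such as HIF1A, that are named in the text.

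Each of the 10 LNCaP identity markers was above 0 in at least 1 library of each group, and their summed level was lower with both hairpins than with the compound. The sum was 837 to 945 RPKM in shFOXA1+shHIF1A and 1408 to 1525 RPKM in shFOXA1+KC7F2, and 6 of the 10 were lower and 1 higher, with a median of -0.64 (log2). Of 16 stromal, endothelial and leukocyte markers, only COL1A1, COL3A1 and VWF passed the filter on low values, and all 3 were higher in shFOXA1+shHIF1A. The summed level of the 16 markers was 6.61 to 7.59 RPKM in shFOXA1+shHIF1A and 2.70 to 4.41 RPKM in shFOXA1+KC7F2. COL1A2, LUM, KDR and CD3E were among those listed at 0 in shFOXA1+shHIF1A, and COL1A2 and DCN among those listed at 0 in shFOXA1+KC7F2. The part of other cell types in the results was not tested, and in bulk RNA fewer cells of a type and less RNA per cell cannot be told apart.

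The target of the second hairpin separated the groups. HIF1A (chromosome 14, 61695513 to 61748259, plus strand, hg38) had 4.33, 4.07 and 4.56 RPKM in the shFOXA1+shHIF1A libraries, against 69.9, 68.0 and 50.6 RPKM in the shFOXA1+KC7F2 libraries. The groups did not overlap, and HIF1A was lower by 3.70 ± 0.23 on the log2 scale (adjusted p = 7.51e-09, limma), which was the largest fall among genes other than small RNAs. shFOXA1 alone gave 88.6, 81.6 and 99.5 RPKM, so that the difference from shFOXA1 was -4.23 ± 0.23 with the hairpin (adjusted p = 1.45e-09, limma) and -0.52 ± 0.23 with KC7F2 (adjusted p = 0.275, limma). The antisense genes HIF1A-AS1 and HIF1A-AS2 overlap HIF1A, and without stated strandedness their reads cannot be told apart from its own.

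FOXA1 itself (chromosome 14, 37589984 to 37596059, minus strand, hg38) was not at the same level in the 2 groups, although both carried its hairpin. It had 70.7, 63.5 and 59.3 RPKM in shFOXA1+shHIF1A, against 41.2, 42.6 and 34.0 RPKM in shFOXA1+KC7F2. All 3 shFOXA1+shHIF1A libraries were above all 3 with the compound, and FOXA1 was higher by 0.71 ± 0.16 (adjusted p = 0.00221, limma). The level in shFOXA1 alone was 35.1, 32.4 and 34.8 RPKM, and in shHIF1A alone, which carries no FOXA1 hairpin, it was 123, 118 and 119 RPKM. Every result below compares groups that differ in this residual FOXA1 level as well as in HIF1A, and the part of FOXA1 in it cannot be told apart. ARNT, the constant partner of HIF1A, did not pass the test, with 10.5 ± 1.38 RPKM in shFOXA1+shHIF1A and 11.7 ± 0.439 RPKM in shFOXA1+KC7F2 (SD, n = 3 each). EPAS1, which encodes the related subunit HIF2A, did not pass either, with 2.42 ± 0.348 RPKM in shFOXA1+shHIF1A and 2.32 ± 0.288 RPKM in shFOXA1+KC7F2 (SD, n = 3 each), and the sign of its difference turned with the scaling. Among the other oxygen sensing genes, EGLN1, a prolyl hydroxylase that marks HIF1A for degradation, was lower by 0.77 ± 0.12. CITED2, which competes with HIF1A for a coactivator, was higher by 0.80 ± 0.10, and HIF1AN, an asparagine hydroxylase that blocks HIF1A activity, was higher by 0.63 ± 0.10.

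The microRNA gene MIR30A is shown next, because pGIPZ is known to carry its hairpins in a scaffold taken from the primary transcript of this microRNA. Its 2 mature products on chromosome 6 are shown from RefSeq (GRCh38.p14, minus strand), 5′ to 3′, with the seed (bases 2 to 8) in capitals:
hsa-miR-30a-5p: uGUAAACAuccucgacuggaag
hsa-miR-30a-3p: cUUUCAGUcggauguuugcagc
The locus MIR30A read 5300.5, 4051 and 4836 RPKM in shFOXA1+shHIF1A, against 6371, 5172 and 4258 RPKM in shFOXA1+KC7F2. These groups overlapped and the gene did not pass the test (-0.14 ± 0.22, adjusted p = 0.65, limma). In the comparison with FOXA1 intact it read 39.8, 18.5 and 25.3 RPKM in shHIF1A, against 5928, 5593 and 5428 RPKM in pGIPZ+KC7F2. The shHIF1A libraries were thus far below the other 9 of these 12 libraries at this locus, and the difference of the 2 comparisons was 7.56 ± 0.31 (adjusted p = 6.32e-10, limma). Whether these reads come from the genome or from a vector was not tested, and the gene also overlaps LINC00472.

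**Figure D2:**
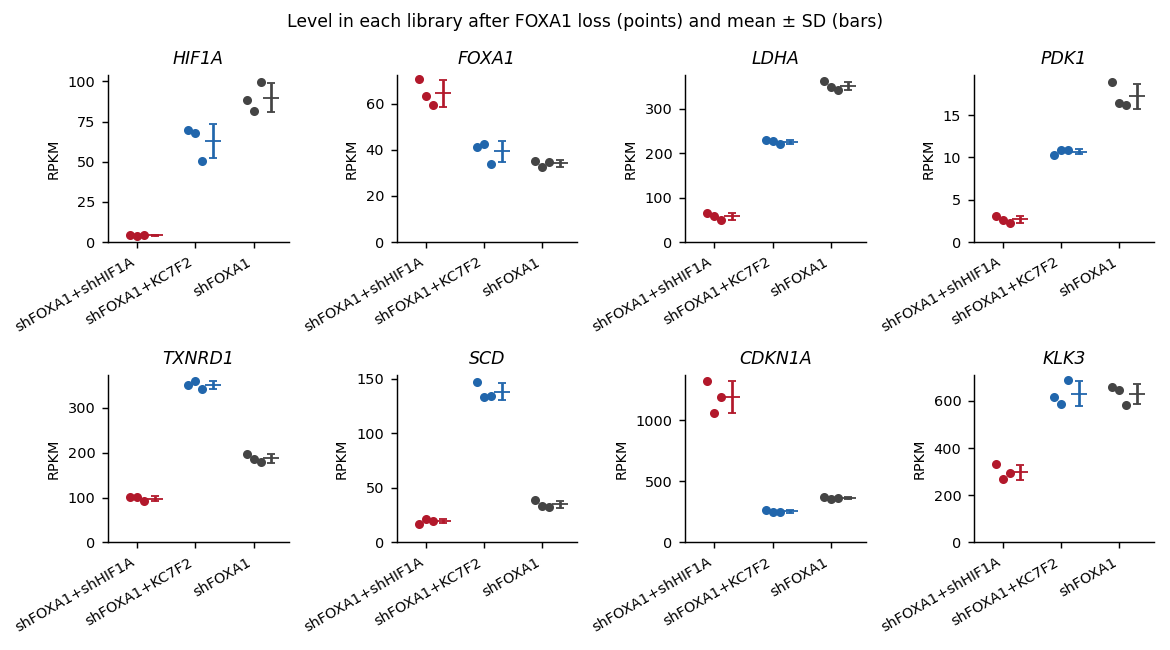
Points give the RPKM of each library for 8 genes in shFOXA1+shHIF1A, shFOXA1+KC7F2 and shFOXA1 (3 libraries each), with the mean and SD beside them; each y axis starts at 0. HIF1A, LDHA and PDK1 were lowest in shFOXA1+shHIF1A, TXNRD1 and SCD were highest in shFOXA1+KC7F2, and CDKN1A was highest and KLK3 lowest in shFOXA1+shHIF1A.

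Genes that HIF1A is known to turn on were more often lower than higher with the hairpin relative to the compound. Of 28 tested genes of glucose uptake and glycolysis, 19 were lower in shFOXA1+shHIF1A and 2 were higher, with a median of -0.79 against 0.09 over all genes. PDK1, the kinase that keeps pyruvate out of the citrate cycle, had 3.11, 2.68 and 2.30 RPKM in shFOXA1+shHIF1A, against 10.3, 10.9 and 10.8 RPKM in shFOXA1+KC7F2. The groups were far apart relative to their spread, and PDK1 was lower by 1.81 ± 0.09 (adjusted p = 8.8e-10, limma). LDHA, the enzyme that turns pyruvate into lactate, had 65.8, 57.7 and 50.4 RPKM in shFOXA1+shHIF1A, against 229, 227 and 220.2 RPKM in shFOXA1+KC7F2. LDHA was lower by 1.96 ± 0.11, which left 25.7% of the level with the compound (adjusted p = 1.71e-09, limma). PFKFB4, which makes the activator of phosphofructokinase, was lower by 1.59 ± 0.10, and the enolase gene ENO2 by 1.43 ± 0.11. PGK1, another glycolytic enzyme, and PFKM, a phosphofructokinase subunit, were the 2 that were higher, by 0.80 ± 0.14 and 0.39 ± 0.09 on the log2 scale, and both are named after their values were seen.

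Placed against shFOXA1 alone, the same list was lower in 22 of 28 genes with the HIF1A hairpin (background 13.5% of genes) and in 7 with KC7F2 (background 2.37%). PDK1 and LDHA passed in both of these comparisons, which share the shFOXA1 libraries. PDK1 differed from shFOXA1 by -2.48 ± 0.09 with the hairpin and by -0.66 ± 0.09 with KC7F2, and LDHA by -2.59 ± 0.11 and -0.64 ± 0.11. The promoters of PDK1 and LDHA are shown because both genes are described here in full and their sequence holds the core that HIF1A is known to bind. Each is the 250 bases before a RefSeq start (GRCh38.p14, plus strand), 5′ to 3′, with ACGTG and GCGTG on either strand in capitals:
PDK1 (chr2:172555840-172556089): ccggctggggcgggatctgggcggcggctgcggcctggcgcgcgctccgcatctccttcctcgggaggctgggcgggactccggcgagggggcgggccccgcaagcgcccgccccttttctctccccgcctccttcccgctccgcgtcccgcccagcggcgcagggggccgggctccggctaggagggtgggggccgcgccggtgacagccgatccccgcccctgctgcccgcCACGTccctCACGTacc
LDHA (chr11:18394313-18394562): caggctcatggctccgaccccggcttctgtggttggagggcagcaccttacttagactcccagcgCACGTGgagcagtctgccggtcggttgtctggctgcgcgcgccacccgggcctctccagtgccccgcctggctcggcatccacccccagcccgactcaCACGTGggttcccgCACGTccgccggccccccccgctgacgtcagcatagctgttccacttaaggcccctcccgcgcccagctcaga
Either core on either strand, counting CACGTG once for each strand, was found 2 times in the first and 5 times in the second. Of 26 list members with a promoter in the table, 22 held at least 1 core in at least 1 promoter (84.6%), against 47.4% of 27305 genes. The match is a description of letters, and no binding was measured here.

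Of 36 other hypoxia targets 30 passed the filter on low values, and of these 15 were lower, 3 were higher and the median was -0.47. ANGPT2, a regulator of blood vessel growth, had 0.524, 0.410 and 0.653 RPKM in shFOXA1+shHIF1A, against 4.13, 4.25 and 3.90 RPKM in shFOXA1+KC7F2. ANGPT2 was lower by 2.16 ± 0.12 (adjusted p = 1.95e-09, limma), although it lay within the gene MCPH1, whose reads may be counted with it. PPFIA4, a liprin, was lower by 2.11 ± 0.17 and PLOD2, which hydroxylates collagen, by 1.88 ± 0.18. CA12, a membrane carbonic anhydrase, was the opposite, with 30.8, 30.3 and 31.5 RPKM in shFOXA1+shHIF1A, against 11.98, 10.3 and 10.4 RPKM in shFOXA1+KC7F2. The shFOXA1+shHIF1A libraries were close to each other and above all with the compound, and the difference was 1.47 ± 0.13 (adjusted p = 2.09e-07, limma). VEGFA, the main vessel growth factor, had 17.8, 23.6 and 18.4 RPKM in shFOXA1+shHIF1A, against 37.8, 35.5 and 34.1 RPKM in shFOXA1+KC7F2, with no overlap and a difference of -0.84 ± 0.14 (adjusted p = 0.000167, limma). Against shFOXA1 alone, VEGFA differed by -0.86 ± 0.14 with the hairpin and by -0.02 ± 0.14 with KC7F2 (adjusted p = 0.969, limma). CA9, another carbonic anhydrase and a common hypoxia marker, stayed below the filter: it was listed at 0 in the 3 shFOXA1+shHIF1A libraries and at 0.140, 0.0961 and 0.367 RPKM in shFOXA1+KC7F2.

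NRF2 target genes were lower with the hairpin than with the compound. Of 23 tested (of 25 listed) NRF2 antioxidant genes, 17 were lower in shFOXA1+shHIF1A than in shFOXA1+KC7F2 and 1 was higher, with a median of -0.74. NRF2 is the transcription factor that answers electrophiles and oxidants. TXNRD1, thioredoxin reductase, had 102, 100.4 and 91.3 RPKM in shFOXA1+shHIF1A, against 350.0, 360.0 and 342 RPKM in shFOXA1+KC7F2. The groups did not overlap and TXNRD1 was lower by 1.84 ± 0.09 (adjusted p = 3.2e-10, limma). Its level in shFOXA1 alone, 197, 187 and 178 RPKM, lay between them, so that it differed by -0.94 ± 0.09 with the hairpin and by 0.90 ± 0.09 with KC7F2. HMOX1, the heme oxygenase, was lower by 1.79 ± 0.15, with levels after the compound like those of shFOXA1: it had 25.7, 26.7 and 23.4 RPKM in shFOXA1+shHIF1A, 87.1, 80.6 and 97.9 RPKM in shFOXA1+KC7F2 and 100.4, 85.0 and 83.05 RPKM in shFOXA1. AKR1C1, an aldo-keto reductase, had 0.890, 1.23 and 1.81 RPKM in shFOXA1+shHIF1A, against 17.5, 15.6 and 18.2 RPKM in shFOXA1+KC7F2. AKR1C1 was lower by 3.31 ± 0.27 (adjusted p = 1.21e-07, limma), and its near-identical copies AKR1C2 and AKR1C3 may share its reads. GCLM, a subunit of the enzyme that starts glutathione synthesis, was lower by 1.22 ± 0.10. Against shFOXA1 alone, 16 of the 23 were higher with KC7F2 (background 1.71%), and 6 were higher and 6 lower with the HIF1A hairpin (backgrounds 24% and 13.5%).

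The promoters of TXNRD1 and GCLM are shown because they are the list members of smallest adjusted p with the antioxidant response core TGACNNNGC, capitals on either strand, in the 250 bases before a RefSeq start (GRCh38.p14, 5′ to 3′ on the gene's strand, plus for TXNRD1 and minus for GCLM):
TXNRD1 (chr12:104215529-104215778): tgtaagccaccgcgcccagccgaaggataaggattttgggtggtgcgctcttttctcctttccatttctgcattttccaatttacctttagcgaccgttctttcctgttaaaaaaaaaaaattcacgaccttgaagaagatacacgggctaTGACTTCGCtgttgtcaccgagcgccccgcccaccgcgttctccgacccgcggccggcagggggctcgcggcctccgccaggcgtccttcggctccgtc
GCLM (chr1:93909431-93909680): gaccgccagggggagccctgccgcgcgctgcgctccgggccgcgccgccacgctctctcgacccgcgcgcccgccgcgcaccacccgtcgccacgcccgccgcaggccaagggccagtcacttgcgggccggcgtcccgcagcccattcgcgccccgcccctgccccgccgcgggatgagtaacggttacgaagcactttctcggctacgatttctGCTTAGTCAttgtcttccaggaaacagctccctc
The core was in a promoter of 4 of 17 list members with a sequence (23.5%) and of 13.2% of 27305 genes. A gene without these letters here may hold them farther away, where they were not searched.

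Genes of sterol and fatty acid synthesis, which SREBP factors turn on when membranes lack sterol, were also lower more often than higher. Of 28 tested (of 30 listed), 13 were lower in shFOXA1+shHIF1A than in shFOXA1+KC7F2 and 4 were higher (median -0.27). SCD, the stearoyl-CoA desaturase, had 17.3, 21.2 and 19.9 RPKM in shFOXA1+shHIF1A, against 147, 133 and 134 RPKM in shFOXA1+KC7F2. The groups were far apart, and SCD was lower by 2.80 ± 0.13 (adjusted p = 3.2e-10, limma). SREBF1, which encodes SREBP1, was lower by 1.87 ± 0.12, INSIG1, a sterol sensor that retains SREBP in the endoplasmic reticulum, by 1.37 ± 0.12, and FADS2, a fatty acid desaturase, by 1.24 ± 0.13. Against shFOXA1, SCD differed by -0.83 ± 0.13 with the hairpin and 1.97 ± 0.13 with KC7F2. Of the 28 genes, 14 were higher with KC7F2 than in shFOXA1 (background 1.71%). With the hairpin, 11 were higher and 6 lower than in shFOXA1 (backgrounds 24% and 13.5%). GPNMB, a lysosomal membrane glycoprotein, was among the largest falls of the comparison. It had 2.33, 2.68 and 2.87 RPKM in shFOXA1+shHIF1A, against 39.7, 33.9 and 34.8 RPKM in shFOXA1+KC7F2 and 7.28, 6.81 and 6.78 RPKM in shFOXA1. The 3 groups did not overlap, and the difference between the agents was -3.55 ± 0.11 (adjusted p = 3.73e-12, limma). SQSTM1, an autophagy receptor, was lower by 1.10 ± 0.12, while CTSB, a lysosomal protease, and GABARAPL1, an autophagosome protein, were higher by 0.84 ± 0.11 and 0.75 ± 0.10. Of 23 tested lysosome and autophagy genes, 6 were higher and 6 lower (backgrounds 23.4% and 13.2%).

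**Figure D3:**
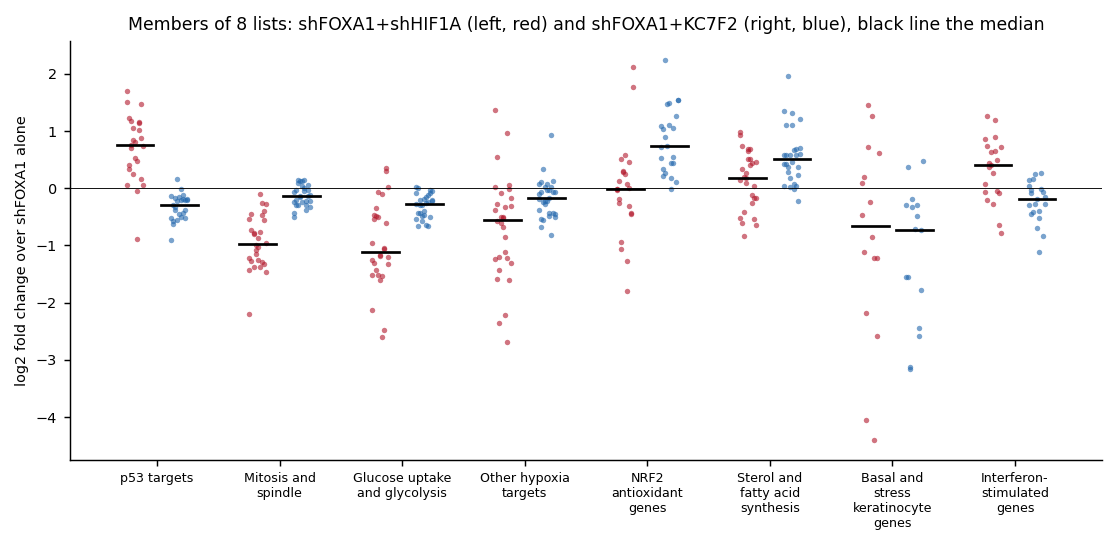
Points are the tested members of 8 gene lists, with the log2 fold change over shFOXA1 alone on the y axis, for shFOXA1+shHIF1A (left, red) and shFOXA1+KC7F2 (right, blue), and black lines give the medians; both share the shFOXA1 libraries. The NRF2 and sterol medians were 0.75 and 0.51 with KC7F2, and the p53 and mitosis medians were 0.76 and -0.97 with the HIF1A hairpin.

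Targets of p53 were higher with the hairpin, and genes of mitosis were lower. LNCaP cells carry a working p53, the transcription factor that halts division under stress. Of 25 tested p53 targets, 22 were higher in shFOXA1+shHIF1A than in shFOXA1+KC7F2 and 1 was lower, with a median of 1.06. CDKN1A (chromosome 6, 36676460 to 36687339, hg38), the cyclin-dependent kinase inhibitor p21, had 1319, 1059 and 1188 RPKM in shFOXA1+shHIF1A, against 269, 248 and 246 RPKM in shFOXA1+KC7F2. The groups did not overlap and CDKN1A was 4.65-fold higher on the log2(RPKM + 0.5) scale (2.22 ± 0.11, adjusted p = 6.86e-10, limma). BTG2, which restrains division, had 71.4, 60.5 and 62.2 RPKM in shFOXA1+shHIF1A, against 16.8, 16.5 and 19.6 RPKM in shFOXA1+KC7F2, a difference of 1.85 ± 0.09 (adjusted p = 2.95e-10, limma). SESN1, a sestrin that restrains growth signalling, was higher by 1.57 ± 0.12, and RRM2B, the p53-inducible subunit of ribonucleotide reductase, by 1.21 ± 0.10. Against shFOXA1 alone, 19 of the 25 were higher and 1 lower with the hairpin (backgrounds 24% and 13.5%). With KC7F2, 6 of the 25 were lower (background 2.37%). BAX, a pro-death BCL2 family member and p53 target, had 59.7, 61.1 and 55.6 RPKM in shFOXA1+shHIF1A, against 22.4, 22.4 and 28.5 RPKM in shFOXA1+KC7F2. It was higher by 1.26 ± 0.16, as were BID, which links death receptors to mitochondria (0.82 ± 0.12), and the survival gene MCL1 (0.58 ± 0.10). BCL2L11, which encodes the pro-death protein BIM, was lower by 0.61 ± 0.11. In all, 6 of 13 tested (of 15 listed) BCL2 family genes were higher and 1 was lower, or 6 and 4 with median-ratio scaling.

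Of 28 mitosis and spindle genes, 19 were lower in shFOXA1+shHIF1A and the other 9 did not pass, with a median of -0.87. HMMR, a spindle protein, had 0.195, 0.147 and 0.264 RPKM in shFOXA1+shHIF1A, against 1.66, 1.43 and 2.36 RPKM in shFOXA1+KC7F2. The difference was -1.70 ± 0.16 (adjusted p = 4.26e-07, limma). TOP2A, the topoisomerase of dividing cells, was lower by 1.27 ± 0.13, the kinetochore gene CENPF by 1.29 ± 0.14 and the microtubule bundling gene NUSAP1 by 1.10 ± 0.13. CKS2, a cofactor of the mitotic kinase, was among the largest falls, with 14.9, 13.0 and 16.6 RPKM in shFOXA1+shHIF1A, against 104, 81.2 and 90.0 RPKM in shFOXA1+KC7F2. The groups did not overlap, and CKS2 was lower by 2.59 ± 0.13 (adjusted p = 6.86e-10, limma). Of 30 genes of DNA replication and S phase, 13 were lower and 3 higher (median -0.28), with 9 to 14 lower when 1 library was left out at a time. RRM2, the dividing-cell subunit of ribonucleotide reductase, was lower by 1.43 ± 0.16, E2F1, which drives S phase entry, by 1.20 ± 0.15, and the licensing gene CDC6 by 0.94 ± 0.17. CCNE1, which encodes cyclin E1, was higher by 1.33 ± 0.15. Levels were low, and TOP2A averaged 1.04 ± 0.238 RPKM in shFOXA1+shHIF1A and 3.18 ± 0.349 RPKM in shFOXA1+KC7F2 (SD, n = 3 each). Against shFOXA1, 21 of the 28 mitosis genes were lower with the hairpin (background 13.5%). With KC7F2, 0 of 28 passed in either direction (limma; backgrounds 1.71% higher and 2.37% lower). At an unadjusted p below 0.05, 2 were lower and 0 higher with KC7F2 (limma).

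**Figure D4:**
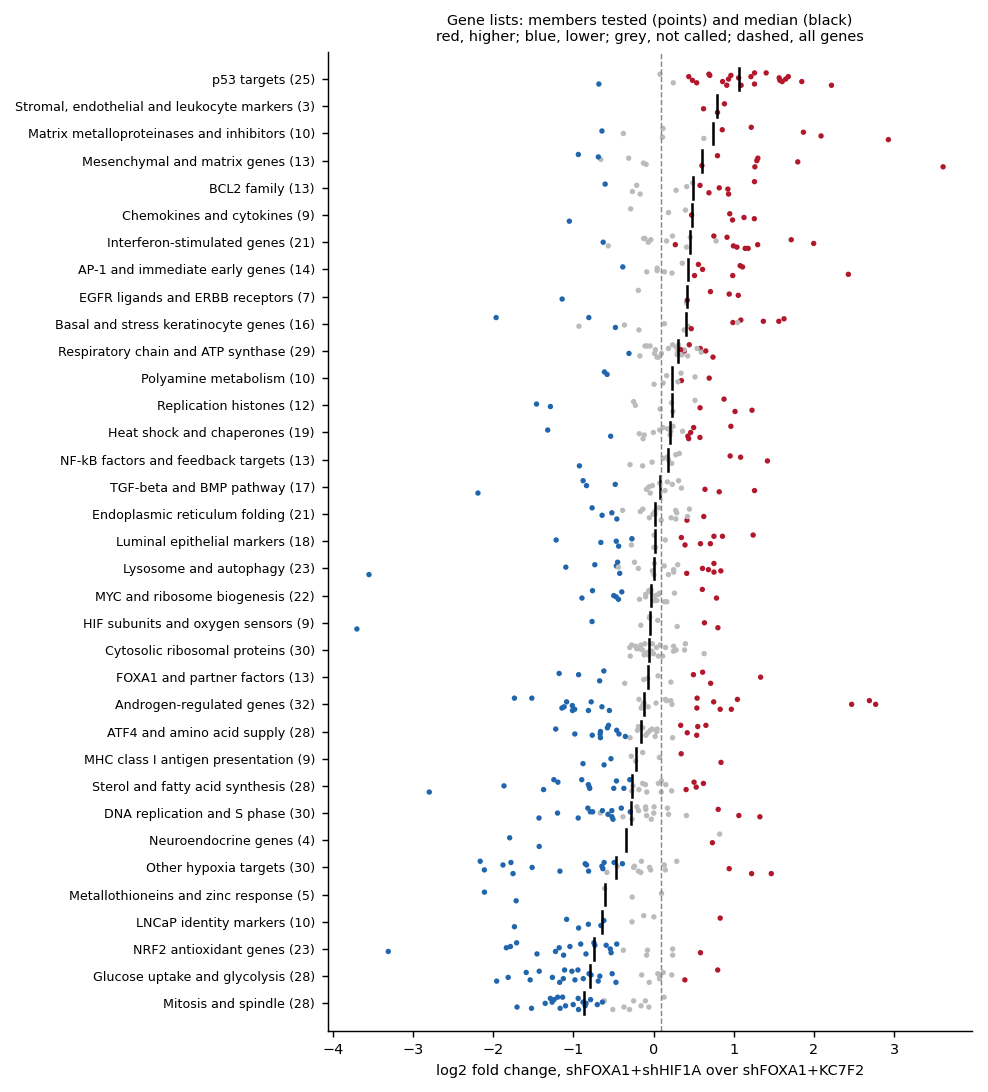
Each row is a gene list (number of tested members in brackets), each point a member and the x axis its log2 fold change of shFOXA1+shHIF1A over shFOXA1+KC7F2, with red for higher, blue for lower and grey for not called. Black bars are list medians, from -0.87 for mitosis and spindle to 1.06 for p53 targets, and the dashed line is the median of all genes at 0.09.

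Androgen-regulated genes moved in both directions. Of 32 tested, 9 were higher and 12 lower (median -0.12). Over all genes tested, 23.4% were higher and 13.2% lower, and these shares also apply to the 2 lists that follow. KLK3, which encodes prostate-specific antigen, had 331, 268 and 294 RPKM in shFOXA1+shHIF1A, against 618, 585 and 689 RPKM in shFOXA1+KC7F2. KLK3 was lower by 1.09 ± 0.13 (adjusted p = 8.65e-06, limma), and the membrane protease gene TMPRSS2 was lower by 1.74 ± 0.09. In contrast, UGT2B11, from a family of steroid-conjugating enzymes whose near-identical copies may share reads, had 63.4, 51.8 and 60.1 RPKM in shFOXA1+shHIF1A, against 7.70, 9.10 and 7.62 RPKM in shFOXA1+KC7F2. It was higher by 2.77 ± 0.16, the prostaglandin dehydrogenase HPGD by 2.47 ± 0.13 and the elongation factor ELL2 by 1.04 ± 0.07. Among FOXA1 and its partner factors, 4 of 13 tested (of 16 listed) were higher and 4 lower, or 3 and 4 whenever 1 library was left out. FOXO3, a forkhead factor of stress and growth factor withdrawal, was lower by 1.18 ± 0.10 and HOXB13, a homeobox factor of the prostate, by 0.62 ± 0.09, while the luminal factor SPDEF was higher by 1.33 ± 0.13. Of 18 luminal epithelial markers, 7 were higher and 5 lower, or 5 to 7 and 2 to 4 with 1 library left out. Their median was 0.01, and it was below 0 under the 3 other scalings. The epithelial factors ELF3 and EHF moved apart, ELF3 by 1.24 ± 0.11 and EHF by -1.22 ± 0.08.

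Genes of matrix, cell shape and matrix breakdown were more often higher in shFOXA1+shHIF1A. Of 13 tested (of 19 listed) mesenchymal and matrix genes, 7 were higher and 2 lower (median 0.60). Over all genes tested, 23.4% were higher and 13.2% lower. VIM, the intermediate filament of mesenchymal cells, had 26.3, 21.9 and 21.8 RPKM in shFOXA1+shHIF1A, against 1.53, 1.89 and 1.01 RPKM in shFOXA1+KC7F2. The shFOXA1+shHIF1A libraries stood far above the others, and VIM was higher by 3.61 ± 0.18 (adjusted p = 6.86e-10, limma), with the antisense gene VIM-AS1 overlapping it. ITGA5, the fibronectin receptor subunit, was higher by 1.80 ± 0.14, the matrix protein gene CYR61 by 1.30 ± 0.12 and the basement membrane collagen gene COL4A2 by 1.29 ± 0.19. Of 10 tested (of 15 listed) metalloproteinases and inhibitors, 5 were higher and 1 lower (median 0.74). MMP1, a collagenase, had 4.93, 3.38 and 5.43 RPKM in shFOXA1+shHIF1A, against 0.159, 0.145 and 0.167 RPKM in shFOXA1+KC7F2, and was higher by 2.93 ± 0.27 (adjusted p = 4.26e-07, limma). MMP10 was higher by 2.09 ± 0.23, MMP13 by 1.87 ± 0.22 and the inhibitor TIMP2 by 0.86 ± 0.11. MMP1 and MMP10 both overlap the transcript WTAPP1. The summed level of stromal, endothelial and leukocyte markers, given above, was also higher in shFOXA1+shHIF1A.

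Keratinocyte, chemokine and interferon genes gave mixed pictures. Of 16 tested (of 22 listed) basal and stress keratinocyte genes, 6 were higher and 3 lower. KRT6B, a stress keratin with near-identical relatives, had 0.269, 0.676 and 0.728 RPKM in shFOXA1+shHIF1A, 3.76, 4.06 and 2.90 RPKM in shFOXA1+KC7F2 and 20.5, 23.2 and 20.9 RPKM in shFOXA1. It was lower by 1.97 ± 0.23 between the agents (adjusted p = 5.69e-06, limma), and both were below shFOXA1. PI3, the protease inhibitor elafin, had 34.9, 34.5 and 42.4 RPKM in shFOXA1+shHIF1A, 13.7, 12.9 and 15.7 RPKM in shFOXA1+KC7F2 and 98.2, 91.9 and 71.9 RPKM in shFOXA1. Here the compound gave the lowest levels, and PI3 was higher by 1.37 ± 0.21 in shFOXA1+shHIF1A (adjusted p = 9.22e-05, limma). The integrin gene ITGB4 was higher by 1.63 ± 0.17, and the basal keratin KRT15 by 1.56 ± 0.23. CCL2, which attracts monocytes, had 4.11, 3.51 and 4.76 RPKM in shFOXA1+shHIF1A, against 9.17, 7.20 and 11.2 RPKM in shFOXA1+KC7F2. It was lower by 1.05 ± 0.28 (adjusted p = 0.00667, limma), whereas 5 of the 9 tested (of 21 listed) chemokines and cytokines were higher. CXCL10, a lymphocyte attractant, was higher by 1.26 ± 0.29 and CXCL8, a neutrophil attractant, by 0.95 ± 0.23. Of 21 tested (of 25 listed) interferon-stimulated genes, 10 were higher and 1 lower (median 0.46), with OASL at 2.00 ± 0.28 and IFIT2 at 1.72 ± 0.19. OASL averaged 3.34 ± 0.325 RPKM in shFOXA1+shHIF1A and 0.512 ± 0.425 RPKM in shFOXA1+KC7F2, and IFIT2 4.48 ± 0.450 and 1.08 ± 0.619 RPKM (SD, n = 3 each), the second with reads it may share with LIPA.

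The largest single rises lay outside these lists for the most part. PTN (chromosome 7, 137227341 to 137343865, minus strand, hg38), the heparin-binding growth factor pleiotrophin, had 50.9, 47.9 and 48.8 RPKM in shFOXA1+shHIF1A, against 0.282, 0 and 0.222 RPKM in shFOXA1+KC7F2. It was almost silent with the compound, and the difference was 6.24 ± 0.25 (adjusted p = 7.28e-11, limma). Its level in shFOXA1 alone was 0.252, 0.424 and 0.876 RPKM and in shHIF1A alone 1.51, 1.98 and 1.89 RPKM. Of these 4 groups shFOXA1+shHIF1A stood apart from the others. DHRS2, a short-chain dehydrogenase, was higher by 4.06 ± 0.26, TFF1, a secreted trefoil peptide, by 3.43 ± 0.23, and ANXA1, a membrane-binding annexin, by 3.21 ± 0.21. Other large rises besides VIM were VSTM2L (3.12 ± 0.18), KITLG, the ligand of the receptor KIT (2.98 ± 0.15), RAET1L, a ligand of the lymphocyte receptor NKG2D with close relatives (2.96 ± 0.33), and HOPX, a homeodomain protein (2.96 ± 0.23).

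Among the largest falls, S1PR3 (chromosome 9, 88990863 to 89005010, plus strand, hg38), a receptor for sphingosine 1-phosphate, had 6.09, 5.77 and 5.00 RPKM in shFOXA1+shHIF1A, against 79.3, 74.2 and 62.3 RPKM in shFOXA1+KC7F2. The groups did not overlap and S1PR3 was lower by 3.56 ± 0.14 (adjusted p = 7.28e-11, limma). Against shFOXA1 alone it differed by -3.68 ± 0.14 with the hairpin and by -0.11 ± 0.14 with KC7F2 (adjusted p = 0.777, limma). WNT11, a secreted Wnt ligand, had 0.159, 0.320 and 0.246 RPKM in shFOXA1+shHIF1A, against 6.32, 5.35 and 4.50 RPKM in shFOXA1+KC7F2, and was lower by 2.98 ± 0.17 (adjusted p = 2.54e-09, limma). MAGEA4, a cancer-testis antigen, was lower by 2.81 ± 0.14, DIO3, which inactivates thyroid hormone, by 2.69 ± 0.27, and IL1RN, the interleukin 1 receptor antagonist, by 2.38 ± 0.15. Small RNA genes were counted apart: of 545 tested, 10 were higher and 49 lower. The shares over all genes tested were 23.4% and 13.2%, so small RNA genes were called less often in both directions. The 2 largest rises among them were MIR6126 (3.32 ± 0.55) and MIR4720 (3.19 ± 0.91; adjusted p = 0.0671 without shFOXA1+KC7F2 2, limma), and a large fall was SNORD83A (-3.83 ± 0.76), which lies within RPL3. MIR3153, within CKS2, was listed at 0 in all 3 shFOXA1+shHIF1A libraries and had 6.63, 10.9 and 2.78 RPKM in shFOXA1+KC7F2. Genes this short reach such RPKM values with few reads.

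The same 2 agents were compared with FOXA1 intact in 6 other libraries, shHIF1A against pGIPZ+KC7F2. These groups also differed at the locus MIR30A, as given above, whereas the groups after FOXA1 loss overlapped there. The labels do not state whether the vectors differed in this way. The part of such a difference in the values with FOXA1 intact, and in the difference of the 2 comparisons below, was not tested. With FOXA1 intact, 2972 genes were higher (23%) and 2529 lower (19.6%). Of the genes higher after FOXA1 loss and with FOXA1 intact, 1961 were shared, which is 64.9% of the first list and 66.0% of the second. Of those lower, 1132 were shared, or 66.6% of the first and 44.8% of the second. Fold changes across the 12900 genes had a Pearson r of 0.638 and a Spearman rho of 0.632, given as a description over genes that are not independent, and the 2 sets of libraries share none. Genes chosen after their values were seen, for close values in both settings, are given side by side. GPNMB differed by -3.55 ± 0.11 after FOXA1 loss and by -3.62 ± 0.11 with FOXA1 intact, TXNRD1 by -1.84 ± 0.09 and -1.96 ± 0.09, TMPRSS2 by -1.74 ± 0.09 and -1.83 ± 0.09, and CDKN1A by 2.22 ± 0.11 and 2.44 ± 0.11. The test of the difference gave an adjusted p of 0.817 for GPNMB, 0.581 for TXNRD1, 0.684 for TMPRSS2 and 0.42 for CDKN1A (limma), and a test that is missed does not show that the effects were equal.

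**Figure D5:**
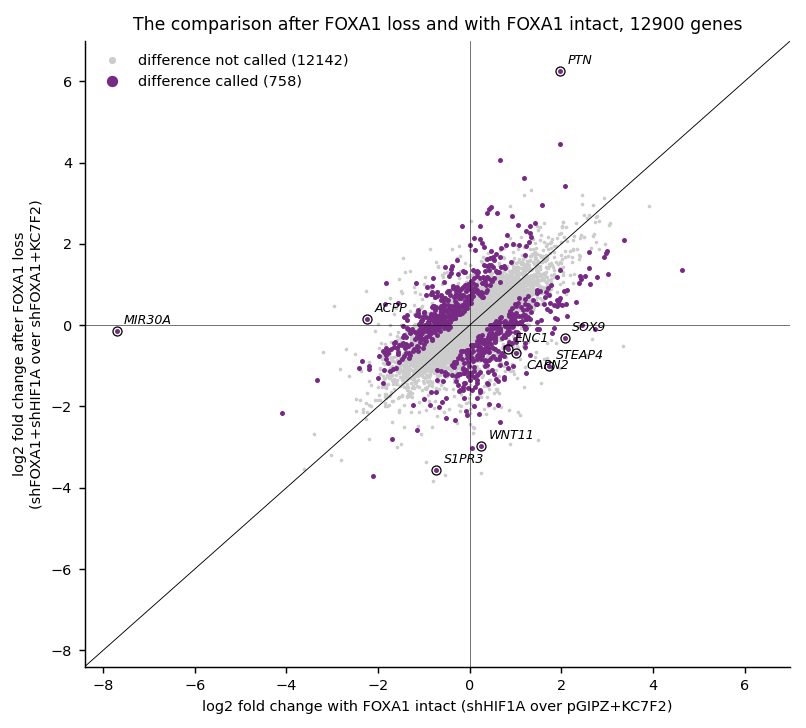
Each point is 1 of 12900 genes, with the log2 fold change after FOXA1 loss (shFOXA1+shHIF1A over shFOXA1+KC7F2) on the y axis, the one with FOXA1 intact (shHIF1A over pGIPZ+KC7F2) on the x axis, and the line of equal values. Purple marks the 758 genes whose difference was called; PTN and ACPP lie above the line, S1PR3 and WNT11 below it, and MIR30A far to the left.

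The difference of the 2 comparisons, after FOXA1 loss minus FOXA1 intact, was called for 758 genes (5.88%), 415 above 0 and 343 below. That balance turned with the scaling, to 298 above and 547 below with median-ratio scaling, 410 and 523 with quantile normalisation, and 531 and 592 without the length and GC trend. The fitted fold change had opposite signs in the 2 settings for 371 of the 758, of which 80 were called in both settings, and was the larger after FOXA1 loss for 164 and the smaller for 223. ACPP, prostatic acid phosphatase, had 4.26, 3.44 and 4.38 RPKM in shFOXA1+shHIF1A and 3.90, 3.68 and 3.17 RPKM in shFOXA1+KC7F2. With FOXA1 intact it had 4.70, 4.42 and 5.18 RPKM in shHIF1A and 24.0, 25.5 and 23.5 RPKM in pGIPZ+KC7F2. ACPP thus overlapped between the groups after FOXA1 loss and was lower in shHIF1A with FOXA1 intact, and the difference of the comparisons was 2.38 ± 0.15 (adjusted p = 1.26e-07, limma). S1PR3 differed by -3.56 ± 0.14 after FOXA1 loss and -0.73 ± 0.14 with FOXA1 intact (difference -2.83 ± 0.20), at levels of 2.74 ± 0.183 RPKM in shHIF1A and 4.92 ± 0.912 RPKM in pGIPZ+KC7F2 (SD, n = 3 each). WNT11 was listed at 0 in all 3 pGIPZ+KC7F2 libraries and had 0.129, 0.0454 and 0.117 RPKM in shHIF1A, so that the libraries with FOXA1 intact gave it almost no signal (difference -3.24 ± 0.24).

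Other genes of smallest adjusted p turned their sign. CAPN2, a calpain protease, differed by -0.68 ± 0.09 after FOXA1 loss and by 1.00 ± 0.09 with FOXA1 intact (difference -1.68 ± 0.12). STEAP4, a metalloreductase, differed by -1.01 ± 0.14 and 1.73 ± 0.14 (difference -2.74 ± 0.20), and ENC1, an actin-binding protein whose gene overlaps another, by -0.59 ± 0.08 and 0.83 ± 0.08 (difference -1.42 ± 0.12). SOX9, a lineage transcription factor, did not pass after FOXA1 loss (-0.33 ± 0.14, adjusted p = 0.0764, limma) and differed by 2.07 ± 0.14 with FOXA1 intact (difference -2.40 ± 0.20). With median-ratio scaling, quantile normalisation, the length and GC trend removed or only the groups compared in the fit, SOX9 was called lower after FOXA1 loss too. CCL2 also turned, with -1.05 ± 0.28 after FOXA1 loss and 0.84 ± 0.28 with FOXA1 intact, a difference of -1.90 ± 0.39 (adjusted p = 0.00819, limma). KLK3 was lower by 1.09 ± 0.13 after FOXA1 loss and 0.45 ± 0.13 with FOXA1 intact, and its difference missed the threshold (-0.63 ± 0.19, adjusted p = 0.0566, limma). HIF1A itself differed more after FOXA1 loss, by -3.70 ± 0.23 against -2.11 ± 0.23, with a difference of -1.60 ± 0.33 (adjusted p = 0.00841, limma). Without pGIPZ+KC7F2 1 and 3 that difference was -1.14 and not called, and that of VEGFA below was -0.99 and not called either. The level of HIF1A with the compound was 62.8 ± 10.6 RPKM after FOXA1 loss and 17.3 ± 5.18 RPKM with FOXA1 intact.

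At the level of lists, glycolysis differed in 8 of 28 genes below 0 and 1 above (backgrounds 2.66% and 3.22% of genes). The number below 0 was 16 with quantile normalisation and 12 without the length and GC trend. The median difference of the list was -0.30 without pGIPZ+KC7F2 1 and 3, against -0.27 with all libraries. PFKFB4 was lower by 1.59 ± 0.10 after FOXA1 loss and did not pass with FOXA1 intact (-0.22 ± 0.10), with a difference of -1.37 ± 0.14 (adjusted p = 2.34e-05, limma). ENO2 and VEGFA gave differences of -1.31 ± 0.16 and -1.003 ± 0.19, and neither passed with FOXA1 intact. Replication genes went the other way. With FOXA1 intact, 28 of 30 were lower in shHIF1A than in pGIPZ+KC7F2 (median -0.96), against 13 of 30 after FOXA1 loss, and the difference was above 0 for 13 of 30. Of 28 mitosis genes, 27 were lower with FOXA1 intact, and the difference was above 0 for 5. Of 30 cytosolic ribosomal protein genes, 26 were lower with FOXA1 intact and 0 passed in either direction after FOXA1 loss (limma), where 1 was higher and 0 lower at an unadjusted p below 0.05, while the difference was called for 1. These ribosomal counts moved with the scaling. After FOXA1 loss, 4 were lower with median-ratio scaling, 4 were higher and 8 lower with quantile normalisation, and 8 were lower without the length and GC trend. With quantile normalisation 16 were lower with FOXA1 intact, and the difference was called for 5 with that scaling and for 6 without the length and GC trend. The libraries pGIPZ+KC7F2 1 and 3 had more signal in short than in long genes (0.44 and 0.34 on the log2 scale, against -0.19 to 0.04 in the 6 libraries after FOXA1 loss). Without these 2 libraries, 1 pGIPZ+KC7F2 library remained and was assumed to vary like the other groups. With FOXA1 intact, the medians of replication, mitosis and ribosomal genes were then -0.85, -1.38 and -0.39, against -0.96, -1.39 and -0.62 with all libraries. The median differences of these lists were 0.58, 0.51 and 0.42, against 0.82, 0.58 and 0.63 with all libraries. Over all genes tested the median difference was 0.08, against 0.09 with all libraries. With the length and GC trend taken out of each library, 28 of 30 replication and 27 of 30 ribosomal genes were lower with FOXA1 intact. The difference was then above 0 for 11 of 30 replication and 3 of 28 mitosis genes. Beyond that fit, the part of the length trend in these values was not tested.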

How the data were processed

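RNA from LNCaP cells was sequenced in 18 libraries, 3 for each of 6 groups, with NEBNext Ultra libraries from total RNA per the labels' protocols. The authors deposited RPKM values, for which the submitters' processing notes name STAR and hg38. The counter, the annotation, strandedness and the vehicle of KC7F2 were not given in the sources used here. Of 26475 lines, 32 held no value, and 23834 of 26443 genes matched GENCODE 29. Depth was recovered from the spacing of the lowest RPKM values (3.26 to 12.1 in units of 1000000 reads; 73.7% to 87.0% of low values whole within 2%), so a count test was not used. No pair of libraries held the same values.

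Values were taken as log2(RPKM + 0.5), for genes that reached 1 RPKM in 3 or more of the 18 libraries. One limma model (3.58.1, R 4.3.3) held all 6 groups (12 residual degrees of freedom), and its two-sided moderated tests (trended variance) gave 5 comparisons, each adjusted by Benjamini-Hochberg over 12900 genes. Groups came from the labels. Promoter and microRNA sequences are from RefSeq (GRCh38.p14), and gene positions from GENCODE 29 (hg38). With strandedness not given, named genes that overlap another gene may hold its reads: besides those given in the text, FOXA1 with TTC6, TXNRD1 with EID3, ENO2 with LRRC23, HIF1AN with NDUFB8, PFKFB4 with UCN2, SREBF1 with RAI1, FADS2 with FADS1 and FEN1, HMMR with HMMR-AS1, SQSTM1 with MGAT4B, ITGB4 with GALK1, CXCL10 with ART3, TIMP2 with CEP295NL, ERBB2 with PGAP3, TAP1 with PSMB9 and SOX9 with SOX9-AS1.

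Members, tests and the 35 gene lists were chosen with earlier results of these data known. Named genes are the targets and a few fixed genes, the 10 largest called rises and falls and 2 small RNAs each way (at least 2 RPKM in 1 group, no overlap between groups), up to 4 members a list by smallest adjusted p, and the 8 differences between settings of smallest adjusted p; some of these are not reported here. Alternatives were other pseudocounts, filters, scalings, models and leaving out libraries.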

Additional observations from a re-analysis of the deposited data

Results flagged for a closer look

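Among the genes named in the text, 49 gave a called difference between the 2 settings, after FOXA1 loss minus FOXA1 intact (limma interaction, adjusted p below 0.05), against 5.88% of all 12900 genes. Some of them were named for that difference, so their number is no result. Values are on the log2 scale, and each gene's difference was called over all genes tested.

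Genes of larger rise or smaller fall after FOXA1 loss came first in size with the locus MIR30A (7.56), followed by PTN (4.27), DHRS2 (3.40), VIM (2.43), ACPP (2.38) and UGT2B11 (2.38). DHRS2 was higher by 4.06 ± 0.26 after FOXA1 loss and differed by 0.66 ± 0.26 with FOXA1 intact. VIM differed by 3.61 ± 0.18 and 1.18 ± 0.18, and UGT2B11 by 2.77 ± 0.16 and 0.39 ± 0.16. ANGPT2 was lower in both settings, by 2.16 ± 0.12 after FOXA1 loss and 4.09 ± 0.12 with FOXA1 intact, which gave 1.92. Smaller positive differences were those of HPGD (1.41), HOPX (1.39), TFF1 (1.35), DUSP4 (1.12), CDC6 (0.84), NUSAP1 (0.77), SPDEF (0.77), ELL2 (0.75) and SESN1 (0.65). Of these, CDC6, NUSAP1, SPDEF, SESN1 and TFF1 lost the call without pGIPZ+KC7F2 1 and 3, which left 1 library in that group. Their differences were then 0.89, 0.87, 0.78, 0.60 and 1.64. With 1 of 12 libraries left out, CDC6 lost the call in 10 cases, SPDEF and SESN1 in 6 each, TFF1 in 2, and HOPX and NUSAP1 in 1 each.

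Among negative differences, PI3 stood first (-3.26), with 1.37 ± 0.21 after FOXA1 loss and 4.63 ± 0.21 with FOXA1 intact. It was followed by WNT11 (-3.24), S1PR3 (-2.83), STEAP4 (-2.74), KRT6B (-2.59), TGFB3 (-2.40), SOX9 (-2.40) and PPFIA4 (-2.02). KRT6B was lower by 1.97 ± 0.23 after FOXA1 loss and differed by 0.63 ± 0.23 with FOXA1 intact. Inflammatory genes in this direction were CCL2 (-1.90), CXCL10 (-1.76), SOD2 (-1.71), BIRC3 (-1.19) and NLRC5 (-1.23). SOD2 changed sign, with -0.93 ± 0.10 after FOXA1 loss and 0.78 ± 0.10 with FOXA1 intact. Hypoxia and oxygen sensing genes were HIF1A (-1.60), PFKFB4 (-1.37), ENO2 (-1.31), PLOD2 (-1.28), EPAS1 (-1.06), VEGFA (-1.003), PDK1 (-0.81) and CITED2 (-0.67). EPAS1 had no call after FOXA1 loss (0.05 ± 0.19) and differed by 1.11 ± 0.19 with FOXA1 intact. Without pGIPZ+KC7F2 1 and 3, HIF1A (-1.14), PLOD2 (-1.23), EPAS1 (-0.58), VEGFA (-0.99) and CITED2 (-0.60) lost the call. EPAS1 also lost the call in 8 of 12 cases with 1 library left out. The remaining negative differences were those of CAPN2 (-1.68), CKS2 (-1.45), ENC1 (-1.42), MMP10 (-1.29), TIMP2 (-1.27), HMOX1 (-1.26), FADS2 (-1.21), FOXO3 (-1.16), SCD (-1.10), BCL2L11 (-0.88), EHF (-0.84) and KLF4 (-0.79). CXCL10 (-1.59), MMP10 (-1.43), SCD (-0.89) and KLF4 (-0.82) also lost the call without pGIPZ+KC7F2 1 and 3. With 1 library left out, MMP10 lost the call in 8 cases and CXCL10 in 2.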

How the results depend on the processing

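For the 5 comparisons, 158 of 186 recomputed counts of higher or lower genes stayed within 1.5 times the value reported. In the direct comparison every count did, from 2479 to 2735 higher and 1396 to 1569 lower when 1 library was left out. Leaving out 1 library gave 2428 to 2881 higher and 1972 to 2538 lower genes with FOXA1 intact, 202 to 645 above and 227 to 450 below 0 for the difference of the settings, 2391 to 2738 and 1481 to 1639 for shFOXA1+shHIF1A against shFOXA1, and 114 to 151 and 181 to 206 for shFOXA1+KC7F2 against shFOXA1. Of the difference counts, those above 0 were 202 without pGIPZ+KC7F2 1, 645 without pGIPZ+KC7F2 2, 241 without pGIPZ+KC7F2 3, 256 and 253 without shHIF1A 2 and 3, 261 without shFOXA1+shHIF1A 1 and 234 without shFOXA1+KC7F2 2, and those below 0 were 227 without shHIF1A 2 and 228 without pGIPZ+KC7F2 1. For shFOXA1+KC7F2 against shFOXA1, each left-out library except shFOXA1 2 lowered both counts by over 1.5 times, to 114 to 132 higher and 181 to 201 lower.

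Without pGIPZ+KC7F2 1 and 3 together, 1517 genes were higher and 1102 lower with FOXA1 intact, and the difference was above 0 for 89 and below 0 for 120. The difference was above 0 for 689 genes when only its groups were fitted. With median-ratio scaling 298 were above and 547 below 0, with quantile normalisation 410 and 523, and without the length and GC trend 531 and 592. The last setting also called 389 genes higher in shFOXA1+KC7F2 than in shFOXA1. The cause was not tested. Of the 49 genes with a called difference of the settings that are named here, 42 to 48 were still called with 1 library left out and 35 without both short-gene libraries, and none changed sign; with 1 library left out the call of CDC6 was lost most often, in 10 of 12 cases. The libraries carry replicate numbers. Deviations of same-numbered libraries from their group means correlated at -0.03, -0.02 and -0.06 after FOXA1 loss and at 0.19, 0.11 and 0.04 (numbers 1, 2 and 3) with FOXA1 intact, where shHIF1A 3 correlated best with pGIPZ+KC7F2 2 (0.08). Not every pair passed 0.1, so they were treated as sharing only a number. The replicate block gave 3130 higher and 1739 lower genes in the direct comparison, and 579 above and 405 below 0 for the difference.

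Among named genes, EPAS1, which was not called, changed sign to -0.0504 with median-ratio scaling and -0.0782 without the length and GC trend, and ran from -0.0422 to 0.13 with 1 library left out. MIR30A, also not called, changed to 0.31 without that trend and ran from -0.288 to 0.0024 with 1 library left out. MIR4720 lost its call without shFOXA1+KC7F2 2 (adjusted p = 0.0671, limma), and SOX9 gained one in 4 settings. The shallowest library, with 3.26 (in units of 1000000 reads), limits genes of low level.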

Other observations

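Growth factor and early response genes were more often higher than lower in shFOXA1+shHIF1A than in shFOXA1+KC7F2. The same held for all genes tested, with 23.4% higher and 13.2% lower. These shares are the background for the list counts of this section. Of 14 tested AP-1 and immediate early genes (of 22 listed), 7 were higher and 1 lower (median 0.43). DUSP4, a phosphatase that switches off MAP kinases, had 17.2, 18.4 and 16.8 RPKM in shFOXA1+shHIF1A, against 2.77, 3.20 and 2.56 RPKM in shFOXA1+KC7F2, without overlap (2.43 ± 0.10, adjusted p = 1.18e-10, limma). JUN, a subunit of AP-1, was higher by 1.11 ± 0.12 and the transcription factor KLF4 by 0.99 ± 0.11. Of 7 tested EGFR ligands and ERBB receptors (of 12 listed), 4 were higher and 1 lower. The receptor gene ERBB2 was higher by 1.06 ± 0.10 and the ligand TGFA by 0.94 ± 0.12, while the ligand EGF was lower by 1.14 ± 0.23. GDF15, a stress-induced TGF-beta family cytokine, averaged 2069 ± 203 RPKM in shFOXA1+shHIF1A and 862 ± 34.0 RPKM in shFOXA1+KC7F2 (SD, n = 3 each), a difference of 1.26 ± 0.16. TGFB3, whose reads may be shared with IFT43, was lower by 2.19 ± 0.23. TGF-beta and BMP genes gave no common direction, with 3 of 17 tested (of 23 listed) higher, 4 lower and a median of 0.08 that was -0.03 with median-ratio scaling.

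Of 5 tested metallothionein and zinc response genes (of 10 listed), 2 were lower. MT1G, a metallothionein with near-identical copies that may share reads, had 2.27, 2.67 and 3.81 RPKM in shFOXA1+shHIF1A, against 11.8, 13.3 and 17.5 RPKM in shFOXA1+KC7F2. It was lower by 2.11 ± 0.25 (adjusted p = 6.88e-06, limma) and MT1F by 1.72 ± 0.33. Of 28 tested genes of ATF4 and amino acid supply (of 29 listed), 11 were lower and 5 higher. SLC3A2, the common chain of amino acid exchangers, was lower by 0.98 ± 0.12 and ASNS, asparagine synthetase, by 0.77 ± 0.10. Against shFOXA1 alone, SLC3A2 differed by 0.16 ± 0.12 with the hairpin and by 1.15 ± 0.12 with KC7F2. SYT4, a synaptotagmin of secretory vesicles, averaged 308 ± 24.8 RPKM in shFOXA1+shHIF1A and 1069 ± 50.7 RPKM in shFOXA1+KC7F2 (SD, n = 3 each), a difference of -1.80 ± 0.10. BIRC3, an NF-kB target that restrains cell death, was higher by 1.42 ± 0.09, and SOD2, the mitochondrial superoxide dismutase, was lower by 0.93 ± 0.10. Among the 13 tested NF-kB genes 3 were higher and 1 was lower. Of 9 tested MHC class I genes (of 14 listed), 2 were higher and 3 lower, with the peptide transporter TAP1 at 0.84 ± 0.14 and the activator NLRC5 at -0.88 ± 0.15.

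Other lists showed small or mixed differences. Of 19 tested heat shock genes (of 20 listed), 6 were higher and 2 lower, and of 21 genes of endoplasmic reticulum folding 2 were higher and 4 lower. Of 29 genes of the respiratory chain and ATP synthase, 6 were higher and 1 lower, and between 1 and 6 were higher when 1 library was left out. Of 22 MYC and ribosome biogenesis genes, 2 were higher and 6 lower, and of 12 replication histone genes, whose copies are near-identical, 4 were higher and 2 lower. Of 10 genes of polyamine metabolism 2 were higher and 2 lower, and of 4 tested neuroendocrine genes (of 12 listed) 1 was higher and 2 lower.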
